A study of Mus musculus with 20 samples.

Results

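The lysosomal hydrolases and membrane proteins described here are 43 genes of the mouse lysosome, chosen by name from 17787 genes in the expression table. The rule uses names and no measured value, although the members were chosen with earlier results of these data known. All 43 were in the table and passed the filter on low values that left 12061 genes for testing. They comprise 10 genes of cathepsins and related peptidases, 9 of glycosidases, 8 of lipid hydrolases, lipid transporters and their cofactors, 6 of lysosomal membrane proteins, 6 of subunits of the vacuolar proton pump (V-ATPase), 2 of transcription factors of the MiT/TFE family, and 2 of antimicrobial effectors of the macrophage. They lie on 17 chromosomes, with 4 on X. Their mean levels over all libraries ran from 25.03 normalized counts (Gla) to 174089 with a median of 8948, and that of all genes tested was 298.3; these counts are not corrected for gene length.

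Lysosomes are the acidic compartments in which macrophages digest what they take up and what they recycle. The V-ATPase pumps protons into the lumen, the membrane proteins enclose it, and cathepsins, glycosidases and lipid hydrolases, most of them carried there on mannose 6-phosphate receptors, break down proteins, glycans and lipids. Many of these genes carry an E-box in the promoter, which TFEB and TFE3 bind when they move into the nucleus. Brg1, encoded by Smarca4, is the ATPase of SWI/SNF chromatin remodelling complexes.

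RNA was sequenced from bone marrow-derived macrophages of male C57BL/6J wild type mice, grown for 7 days in medium with 30% L929 supernatant. All 6 groups received siRNA at 50 nM for 48 h, either a control product or a product against Brg1, so the control groups were transfected too and the knockdown was transient, not a deletion. During the last 6 h the cells received vehicle (0.1% ethanol and 0.1% D-PBS), LPS (lipopolysaccharide, the ligand of Toll-like receptor 4, at 100 ng/ml with 0.1% ethanol) or Dex+LPS (1 µM of the glucocorticoid dexamethasone with 100 ng/ml LPS). Each siRNA had 3 vehicle, 3 LPS and 4 Dex+LPS libraries, and nothing in the labels says whether these came from separate animals or cultures, so the tests see only the variation among these libraries, which may be technical. No group received dexamethasone without LPS.

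Library depth was 13.69 to 18.71 M reads. The identifiers of 4 libraries (control siRNA LPS replicate 3, control siRNA Dex+LPS replicate 4, Brg1 siRNA LPS replicate 2 and Brg1 siRNA Dex+LPS replicate 4) belong to a separate, higher number series. Smarca4 itself was at 1476, 1538 and 1626 (control siRNA) against 365, 358 and 340.2 (Brg1 siRNA) in vehicle, at 2989.8, 2899 and 2751 (control siRNA) against 621, 559.5 and 600.1 (Brg1 siRNA) in LPS and at 2032, 1745, 1905 and 2182 (control siRNA) against 459.8, 414, 442 and 518 (Brg1 siRNA) in Dex+LPS, in normalized counts. These groups did not overlap, and the log2 fold changes were -2.12, -2.28 and -2.10. All 10 macrophage markers checked were present in every group, with a summed level of 79061 to 210047 normalized counts per library. The markers of fibroblasts (3 of 7 listed were in the table), of mast cells and basophils (2 of 6) and of erythroid cells (1 of 5) summed to at most 11.8 in any library. The 4 of 6 B cell markers in the table summed to 629.8 to 703.1 with control siRNA against 53.2 to 70.8 with Brg1 siRNA in vehicle, 71.03 to 108.7 against 11.2 to 22.7 in LPS and 94.6 to 148.5 against 3.69 to 10.3 in Dex+LPS, and with control siRNA most of it was Ighm, while Cd79a was at 0 in 5 of the 6 groups. The T and NK cell markers (4 of 7) went the other way, at 69.5 to 92.0 against 118.9 to 174.8, 26.7 to 48.5 against 73.5 to 182 and 21.4 to 28.1 against 66.5 to 170.6. Most of that sum was Cd4, at 60.3, 87.0 and 71.6 (control siRNA) against 141.9, 118.1 and 168.8 (Brg1 siRNA) in vehicle. Cd3g and Cd8a were at most 2.27 in any library. Neutrophil markers (9 of 10) summed to 126 to 190 in vehicle, 282 to 353 in LPS and 403 to 636 in Dex+LPS. Most of the Dex+LPS sum was S100a8, at 246.4 to 458.7 against 83.4 to 136.4 in LPS. Mmp8 was also higher in Dex+LPS (36.9 to 65.2 against 14.7 to 27.4), while S100a9 was lower (35.3 to 65.8 against 67.4 to 98.3). Elane and Mpo were at most 2.49 in any library. Dendritic cell markers (6 of 6) summed to at most 56.4. A list of 9 osteoclast markers, of which 8 were tested, summed to 2999 to 3237 in control siRNA vehicle libraries and to 1765 to 1854.5 in Brg1 siRNA vehicle libraries. It was lower in Brg1 siRNA libraries under LPS (991.1 to 1148 against 2398 to 2548) and Dex+LPS (749.3 to 965.9 against 1224 to 1770) too. A few genes carried the osteoclast sum. In vehicle, Dcstamp was at 1503, 1371 and 1256 (control siRNA) against 252, 224 and 222 (Brg1 siRNA) and Ctsk at 418, 399 and 356 (control siRNA) against 98.9, 94.6 and 119 (Brg1 siRNA), while Nfatc1 was at 568, 580.0 and 519 (control siRNA) against 697, 735 and 779 (Brg1 siRNA). The part of these markers in the results was not tested. In bulk RNA, fewer cells of a type and less RNA per cell cannot be told apart.

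The E-boxes in the members' promoters are shown first because they are what TFEB and TFE3 are known to bind. RefSeq promoter windows on GRCm38.p6, from 250 bases before to 50 bases after a gene's start, were found for 37 of the 43 members by symbol. Ctsb, Ctsh, Npc1, Asah1, Atp6v0d2 and Atp6v1b2 had no window. The E-box CACGTG, read on both strands, occurred in 12 of the 37 (32.4%), against 8.09% of the 27025 genes with a window. The longer TCACGTGA, which contains the E-box, occurred in 6 members (16.2%) and in 1.12% of all genes. The still longer CLEAR palindrome, TFEB's best-known motif, occurred in none of the 37 and in 0.370% of all genes. The sites below are 30-base windows, 5′ to 3′ on the gene's strand, with the matched letters in capitals, for every site of the 12 members that hold one.
Ctsd (chr7:142387908-142387937, minus strand): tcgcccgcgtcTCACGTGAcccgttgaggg
Ctsd (chr7:142388048-142388077, minus strand): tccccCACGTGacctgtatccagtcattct
Ctsa (chr2:164833749-164833778, plus strand): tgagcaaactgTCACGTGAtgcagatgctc
Ctsa (chr2:164833766-164833795, plus strand): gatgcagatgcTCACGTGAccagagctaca
Mcoln1 (chr8:3500436-3500465, plus strand): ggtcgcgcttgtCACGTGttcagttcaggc
Mcoln1 (chr8:3500462-3500491, plus strand): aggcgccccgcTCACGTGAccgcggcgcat
Atp6v0d1 (chr8:105566050-105566079, minus strand): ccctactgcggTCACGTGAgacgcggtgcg
Atp6v1a (chr16:44139373-44139402, minus strand): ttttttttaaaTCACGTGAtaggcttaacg
Gla (chrX:134601182-134601211, minus strand): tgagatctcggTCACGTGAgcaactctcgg
Gla (chrX:134601215-134601244, minus strand): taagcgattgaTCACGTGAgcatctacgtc
Gaa (chr11:119267811-119267840, plus strand): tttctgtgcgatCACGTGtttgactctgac
Lgmn (chr12:102439124-102439153, minus strand): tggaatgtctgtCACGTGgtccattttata
Ctsl (chr13:64370739-64370768, minus strand): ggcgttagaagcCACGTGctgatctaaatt
Glb1 (chr9:114401018-114401047, plus strand): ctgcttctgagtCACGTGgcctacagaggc
Naglu (chr11:101070009-101070038, plus strand): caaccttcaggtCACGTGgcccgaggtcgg
Lamp1 (chr8:13159088-13159117, plus strand): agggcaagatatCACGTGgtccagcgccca
Lamp1 (chr8:13159104-13159133, plus strand): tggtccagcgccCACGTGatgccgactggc
Lamp1 (chr8:13159121-13159150, plus strand): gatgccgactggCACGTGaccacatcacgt
Lamp1 (chr8:13159134-13159163, plus strand): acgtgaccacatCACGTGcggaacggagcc
Ctsa and Gla each held a pair of TCACGTGA sites, Ctsd and Mcoln1 each held 1 such site and a further CACGTG, and Lamp1 held 4 copies of the E-box within its window. A match describes letters in a window and is not evidence of binding.

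Brg1 knockdown was accompanied by higher levels of most of these genes in every treatment. In vehicle, 23 of the 43 members rose and 4 fell at an adjusted p under 0.05 by limma, where 9.39% of all genes tested rose and 10.8% fell. In LPS, 28 rose and 4 fell, where 17.3% of all genes rose and 15.8% fell, and in Dex+LPS 29 rose and 4 fell, against 19.0% and 15.3%. The median log2 fold change of the members was 0.21 in vehicle, 0.33 in LPS and 0.29 in Dex+LPS, and that of all genes was 0.01 in each. Among the 2916 genes with a mean of at least 1000 normalized counts, 18.1%, 28.1% and 33.7% rose, and 21, 26 and 27 of the 36 members at that level did. The groups with control and Brg1 siRNA did not overlap for 33 of 43 members in vehicle, 35 in LPS and 27 in Dex+LPS, where 46.1%, 46.1% and 29.2% of all genes did not overlap. With plain library totals in place of size factors, the median of all genes was -0.03, -0.12 and -0.09, and 22, 24 and 24 members rose while 4, 6 and 5 fell. The authors' deposited table gave the same counts of members as limma in all 3 treatments, 23 and 4, 28 and 4, and 29 and 4.

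Most members had the same call in all 3 treatments. Of the 43 members, 23 rose in all 3 treatments, and 2, Manba and Tpp1, fell in all 3. Ctsh, Ctss, Cd68 and Atp6ap1 rose in LPS and in Dex+LPS but did not pass the test in vehicle. Another 10 passed in no treatment: Gla, Naglu, Gm2a, Smpd1, Asah1, Cd63, Atp6v1a, Atp6v0c, Tfeb and Tfe3. The remaining 4 had mixed calls and are described under their roles.

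The share of reads is a measure that needs no size factor. The 43 genes took 9.07% to 9.45% of all reads in the control siRNA vehicle libraries and 11.4% to 11.5% with Brg1 siRNA. In LPS the shares were 4.31% to 4.49% with control siRNA and 5.61% to 5.98% with Brg1 siRNA. In Dex+LPS they were 4.92% to 5.51% and 6.24% to 6.55%. No library of one siRNA reached the range of the other within a treatment. A few abundant members weigh most in this sum, and the share falls when other genes take more of the reads.

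**Figure D1:**
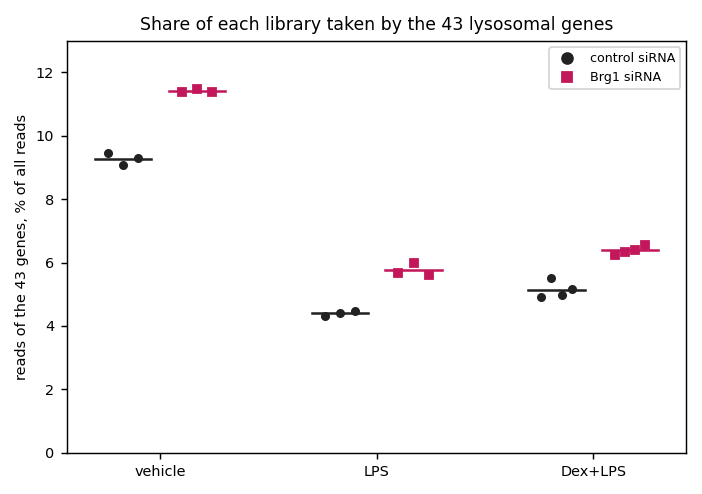
Reads of the 43 lysosomal genes as a percent of all reads (vertical axis, from 0) in each of the 20 libraries (points), by treatment (horizontal axis) and siRNA, with group means as lines. The vehicle libraries lie highest, at 9.07% to 11.5%, and within each treatment every Brg1 siRNA library lies above every control siRNA library.

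**Figure D2:**
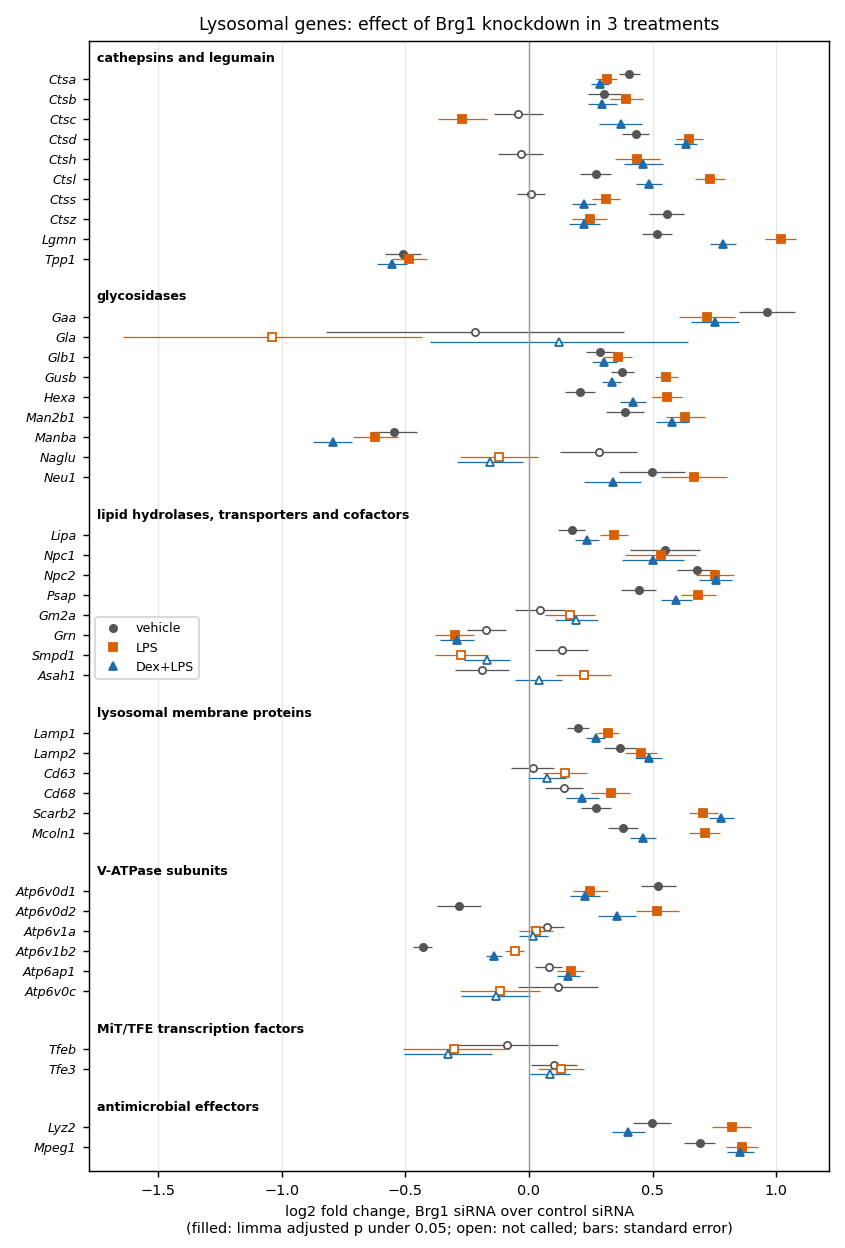
Log2 fold change of Brg1 siRNA over control siRNA (horizontal axis) with its standard error (bars) for each of the 43 genes, grouped by role, in vehicle, LPS and Dex+LPS. Filled symbols passed limma's adjusted p of 0.05. Most filled symbols lie to the right of 0, with Manba and Tpp1 to the left in all 3 treatments.

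Among the 10 genes of cathepsins and related peptidases, 6 rose and 1 fell in vehicle, 8 rose and 2 fell in LPS, and 9 rose and 1 fell in Dex+LPS. Legumain (Lgmn, chr12:102394084-102439813, minus strand on GRCm38) is an asparaginyl endopeptidase that also processes other cathepsins. In vehicle it was at 21260.1, 19854 and 19769 (control siRNA) against 29220.3, 28746 and 29247 (Brg1 siRNA) normalized counts. They were 9588, 10337 and 10042 (control siRNA) against 20961, 20609 and 19134 (Brg1 siRNA) in LPS. In Dex+LPS they were 8538, 10017, 8559 and 8911 (control siRNA) against 14482, 15724, 16006 and 15735 (Brg1 siRNA). The groups did not overlap in any treatment. The log2 fold changes were 0.52 ± 0.06 (SE) in vehicle, 1.02 ± 0.06 in LPS and 0.78 ± 0.05 in Dex+LPS. The limma adjusted p values were 7.14e-06, 1.32e-09 and 3.5e-09.

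Ctsd (chr7:142375911-142388038, minus strand) encodes the aspartic protease cathepsin D. It was at 133635, 128247 and 131115 (control siRNA) against 177018, 175563 and 177814 (Brg1 siRNA) in vehicle. It was at 66812, 67638 and 68230.2 (control siRNA) against 106976, 108550.0 and 102438 (Brg1 siRNA) in LPS. It was at 74245, 82092, 68814 and 72192 (control siRNA) against 114599.5, 114050.4, 116338 and 115647 (Brg1 siRNA) in Dex+LPS. All Brg1 siRNA libraries lay above all control siRNA libraries of their treatment, by 0.43 ± 0.05, 0.65 ± 0.05 and 0.63 ± 0.05 on the log2 scale. Of the 31-base words in its transcripts, 33.2% also occur in transcripts of other genes, with Gm49369 sharing the most. Its reads could thus be split between genes.

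Ctsl, the cysteine protease cathepsin L, showed a larger knockdown effect in LPS than in vehicle. Its counts were 20219, 18571 and 16946 (control siRNA) against 22546, 22577 and 21930.0 (Brg1 siRNA) in vehicle. In LPS they were 15985, 15498 and 16321 (control siRNA) against 26595, 27331 and 25479 (Brg1 siRNA). In Dex+LPS they were 24249, 26947, 23613 and 24377 (control siRNA) against 34670.5, 34029.9, 33580.0 and 36579.5 (Brg1 siRNA). The siRNA groups were apart in every treatment, and the log2 fold changes were 0.27 ± 0.06, 0.73 ± 0.06 and 0.49 ± 0.05.

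Ctsz, the carboxypeptidase cathepsin Z, showed its largest estimate in vehicle, where it was at 13303, 12171 and 12852 (control siRNA) against 18519, 18645 and 19221 (Brg1 siRNA). In LPS it was at 23679.5, 23927 and 24592 (control siRNA) against 28551, 28662 and 28413 (Brg1 siRNA). In Dex+LPS it was at 17929, 21881, 16865 and 18695 (control siRNA) against 20523, 21565, 22729.7 and 22884 (Brg1 siRNA). The groups were apart in vehicle and LPS and overlapped in Dex+LPS, with log2 fold changes of 0.56 ± 0.07, 0.25 ± 0.07 and 0.22 ± 0.06. Ctsa, a carboxypeptidase that also protects other lysosomal enzymes, rose by 0.41, 0.31 and 0.29. Ctsb, cathepsin B, rose by 0.31, 0.39 and 0.30.

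Ctss, cathepsin S, which trims the invariant chain for antigen presentation, had a log2 fold change of 0.01 ± 0.06 in vehicle, which did not pass the test, and rose by 0.31 ± 0.06 in LPS and 0.22 ± 0.05 in Dex+LPS. Ctsh, cathepsin H, followed the same order of calls. Its counts were 4762, 4826 and 4231 (control siRNA) against 4654, 4366 and 4468 (Brg1 siRNA) in vehicle, where the groups overlapped. In LPS they were 3519.7, 3389 and 3836 (control siRNA) against 4916, 4544 and 5093 (Brg1 siRNA), with no overlap. Its log2 fold changes were -0.03 ± 0.09 in vehicle, 0.44 ± 0.09 in LPS and 0.46 ± 0.08 in Dex+LPS.

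Ctsc and Tpp1 departed from the other peptidases. Ctsc encodes cathepsin C, which activates the serine proteases of granules. It was at 1714, 1949 and 1611 (control siRNA) against 1712, 1679 and 1713 (Brg1 siRNA) in vehicle, where the groups overlapped. Under LPS it was at 16383, 16849 and 15666 (control siRNA) against 13490.2, 12829 and 14266 (Brg1 siRNA), lower in every Brg1 siRNA library. Under Dex+LPS it was at 2211, 1729, 2018 and 1725 (control siRNA) against 2714, 2579, 2541 and 2096 (Brg1 siRNA), where the groups overlapped. On the log2 scale the changes were -0.27 ± 0.10 in LPS (limma adjusted p = 0.0456) and 0.37 ± 0.09 in Dex+LPS (limma adjusted p = 0.0026). The call in LPS was lost in 14 of 31 alternative analyses, among them those without any one of the 6 LPS libraries, at a limma adjusted p of up to 0.136 (without Brg1 siRNA LPS replicate 2).

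Tpp1 (chr7:105744811-105752235, minus strand), tripeptidyl peptidase, was lower with Brg1 siRNA throughout. Its counts were 3766, 3528 and 3375 (control siRNA) against 2509, 2457 and 2525 (Brg1 siRNA) in vehicle. They were 2189, 2263 and 2305 (control siRNA) against 1628, 1766 and 1453 (Brg1 siRNA) in LPS. They were 2206, 2551, 2246 and 2254 (control siRNA) against 1669, 1470.5, 1571 and 1593 (Brg1 siRNA) in Dex+LPS. Control and Brg1 siRNA libraries did not overlap in any treatment, and the log2 fold changes were -0.51 ± 0.07, -0.48 ± 0.07 and -0.55 ± 0.06, with limma adjusted p = 4.62e-05, 4.62e-05 and 1.61e-06.

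**Figure D3:**
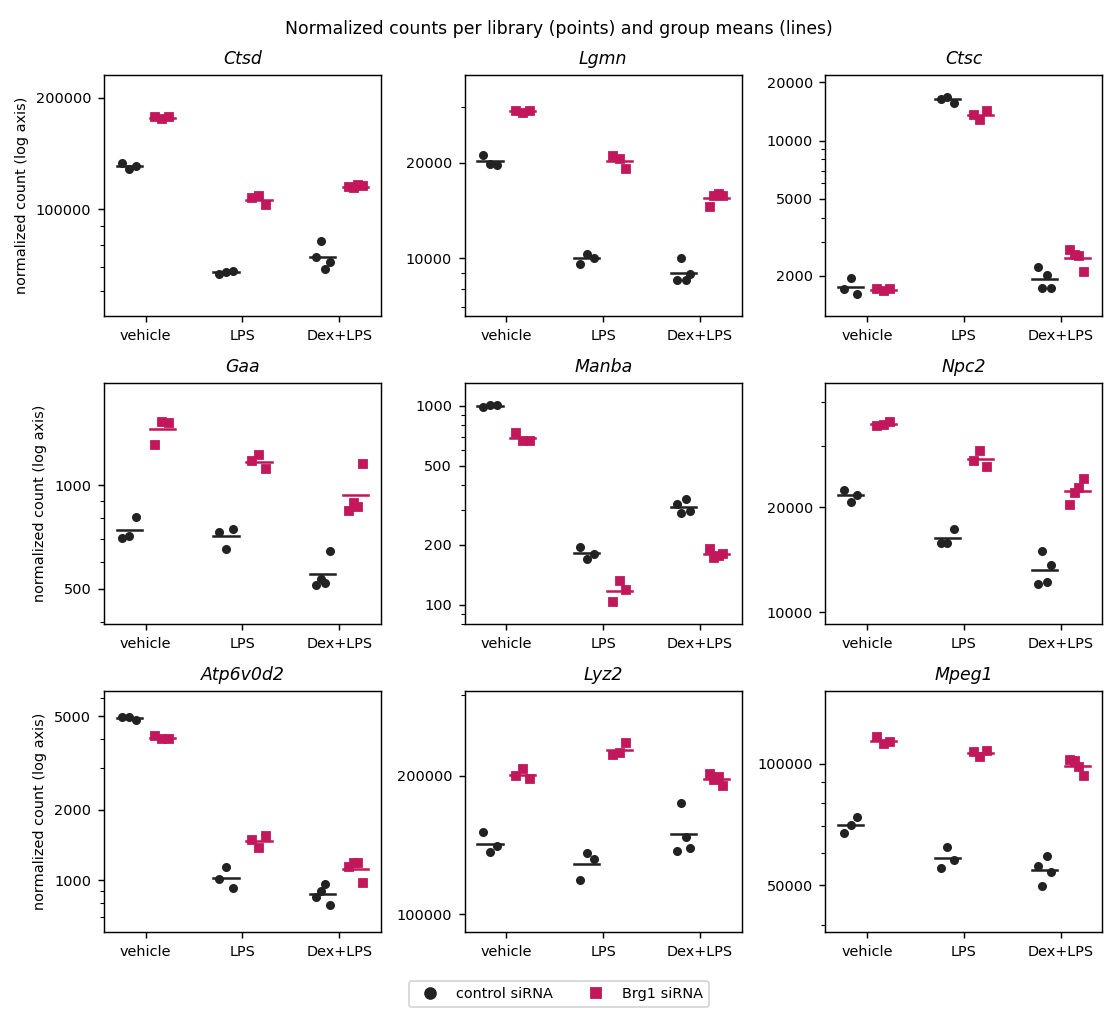
Normalized counts (vertical axis, log scale) of 9 lysosomal genes in each library (points) by treatment (horizontal axis) and siRNA, with group means as lines. Ctsd, Lgmn, Gaa, Npc2, Lyz2 and Mpeg1 are higher with Brg1 siRNA in each treatment, Manba is lower, Atp6v0d2 is lower in vehicle and higher in LPS, and Ctsc is raised in LPS with both siRNAs.

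Of the 9 glycosidases, 6 rose and 1 fell in each treatment. Gaa (chr11:119267887-119285454, plus strand) encodes acid alpha-glucosidase, which breaks down glycogen in the lysosome. It was at 703, 713 and 809 (control siRNA) against 1307, 1524 and 1516 (Brg1 siRNA) in vehicle. It was at 729, 654 and 747 (control siRNA) against 1172, 1222 and 1110.5 (Brg1 siRNA) in LPS. It was at 514, 534, 519 and 645 (control siRNA) against 842, 888, 862 and 1149.6 (Brg1 siRNA) in Dex+LPS. No control siRNA library reached a Brg1 siRNA library of its treatment. Replicate 4 was the highest of its group with either siRNA in Dex+LPS. The fold changes on the log2 scale were 0.96 ± 0.11, 0.72 ± 0.11 and 0.75 ± 0.10, with limma adjusted p = 6.38e-06, 8.46e-05 and 9.29e-06.

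Manba (chr3:135485611-135571404, plus strand), beta-mannosidase, moved the other way. Its counts were 987, 1006 and 1008 (control siRNA) against 731, 663 and 663 (Brg1 siRNA) in vehicle. In LPS they were 195, 169 and 179 (control siRNA) against 104, 131 and 118 (Brg1 siRNA). In Dex+LPS they were 322, 289.6, 339 and 295 (control siRNA) against 189.9, 172, 175 and 179 (Brg1 siRNA). Every Brg1 siRNA library lay below every control siRNA library of its treatment, with log2 fold changes of -0.55 ± 0.09, -0.62 ± 0.09 and -0.79 ± 0.08, and limma adjusted p = 0.000264, 4.21e-05 and 3.99e-07. Man2b1, the lysosomal alpha-mannosidase, which also acts on mannose-rich glycans, rose by 0.39, 0.63 and 0.58.

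Another 4 glycosidases rose in all 3 treatments. Glb1, beta-galactosidase, rose by 0.29, 0.36 and 0.31 in vehicle, LPS and Dex+LPS. Gusb, beta-glucuronidase, rose by 0.38, 0.55 and 0.33. Hexa, the alpha subunit of beta-hexosaminidase, which degrades gangliosides, rose by 0.21, 0.56 and 0.42. Neu1, the lysosomal sialidase, works in a complex with Ctsa and Glb1. It rose by 0.50, 0.67 and 0.34. Naglu, which degrades heparan sulfate, had log2 fold changes of 0.28 ± 0.16, -0.12 ± 0.16 and -0.16 ± 0.14, none of which passed the test. Gla, alpha-galactosidase A, was the member with the lowest counts and a coefficient of variation of up to 76.7% within a group, so that its values of -0.22 ± 0.60, -1.04 ± 0.60 and 0.12 ± 0.52 show no difference detectable at this depth. Over all members the median coefficient of variation within a group was 4.80%, and the highest without Gla was 26.8%.

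Among the 8 genes of lipid handling, 4 rose in each treatment, and Grn fell in LPS and in Dex+LPS. Npc2 (chr12:84754562-84773152, minus strand) encodes the luminal protein that binds cholesterol and passes it to the membrane protein Npc1. Npc2 was at 22434, 20746 and 21678 (control siRNA) against 34202, 34519 and 35024 (Brg1 siRNA) in vehicle. It was at 15820.5, 15761 and 17312 (control siRNA) against 27188, 29072 and 26082 (Brg1 siRNA) in LPS. It was at 12014, 14953, 12196 and 13681 (control siRNA) against 20339.7, 21984, 22646 and 24052 (Brg1 siRNA) in Dex+LPS. There was no overlap between the siRNA groups in any treatment, and the log2 fold changes lay close together at 0.68 ± 0.08, 0.75 ± 0.08 and 0.76 ± 0.07.

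Npc1 rose with its partner by 0.55 ± 0.14, 0.53 ± 0.14 and 0.50 ± 0.12. In vehicle it was at 2614, 2933 and 3355 (control siRNA) against 4431, 4228 and 4316 (Brg1 siRNA). The LPS libraries were at 1796, 1875 and 1716 (control siRNA) against 2739, 2573 and 2485 (Brg1 siRNA), and in Dex+LPS at 1640.1, 992, 1615 and 1672 (control siRNA) against 1918, 2158, 2099 and 2034 (Brg1 siRNA). The groups did not overlap in any treatment, although replicate 2 of the control siRNA Dex+LPS group lay far below the other 3. Without control siRNA vehicle replicate 1 the call in vehicle was lost, at a limma adjusted p of 0.0566.

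Psap, the precursor of the saposins that present lipids to hydrolases, rose by 0.44 ± 0.07, 0.69 ± 0.07 and 0.60 ± 0.06. Lipa, lysosomal acid lipase, which frees cholesterol from its esters, rose by 0.17 ± 0.06, 0.34 ± 0.06 and 0.23 ± 0.05. Grn encodes progranulin, which supports lysosomal enzymes and is also secreted. With LPS it was at 18432, 17143 and 18970.5 (control siRNA) against 13779.5, 15931 and 14627 (Brg1 siRNA), without overlap. The Dex+LPS libraries were at 15379, 17558, 13490.2 and 16684 (control siRNA) against 12316, 12336, 12988 and 13768 (Brg1 siRNA), with overlap. Its log2 fold changes were -0.17 ± 0.08 in vehicle, which did not pass, -0.30 ± 0.08 in LPS and -0.29 ± 0.07 in Dex+LPS. The remaining 3 did not pass in any treatment. Their values in vehicle, LPS and Dex+LPS were 0.04, 0.17 and 0.19 for Gm2a, the ganglioside activator. They were 0.13, -0.27 and -0.17 for Smpd1, acid sphingomyelinase, and -0.19, 0.22 and 0.04 for Asah1, acid ceramidase.

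Of the 6 lysosomal membrane proteins, 4 rose in vehicle and 5 in each of LPS and Dex+LPS. Scarb2 (chr5:92441314-92506833, minus strand) encodes the membrane receptor that carries beta-glucocerebrosidase to the lysosome. It was at 3234, 3169.5 and 2945 (control siRNA) against 3860.4, 3692 and 3729 (Brg1 siRNA) in vehicle. It was at 1418, 1509 and 1488 (control siRNA) against 2429, 2290.4 and 2484 (Brg1 siRNA) in LPS. It was at 1425, 1465, 1416 and 1315 (control siRNA) against 2456, 2529.7, 2458 and 2209 (Brg1 siRNA) in Dex+LPS. The groups were apart in every treatment, with log2 fold changes of 0.27 ± 0.06, 0.71 ± 0.06 and 0.78 ± 0.05. Mcoln1, the calcium channel TRPML1, rose by 0.38 ± 0.06, 0.71 ± 0.06 and 0.46 ± 0.05. Of the glycoproteins that line the membrane, Lamp1 rose by 0.20, 0.32 and 0.27 and Lamp2 by 0.37, 0.45 and 0.48. Cd68, a macrophage glycoprotein of the same family, rose by 0.33 in LPS and 0.22 in Dex+LPS, and its 0.14 in vehicle did not pass. Cd63, a tetraspanin of late endosomes, had log2 fold changes of 0.01, 0.15 and 0.07, none of which passed. Of its 31-base words, 15.9% are shared with other genes, most of all with the pseudogene Cd63-ps.

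The V-ATPase subunits did not move together. Of the 6, 1 rose and 2 fell in vehicle, 3 rose in LPS, and 3 rose and 1 fell in Dex+LPS. Atp6v0d1 (chr8:105524465-105566047, minus strand) encodes the widely expressed form of the d subunit that joins the membrane and cytosolic sectors. It was at 2389.6, 2065 and 2267 (control siRNA) against 3177, 3221 and 3249 (Brg1 siRNA) in vehicle. It was at 3931, 3709 and 3991 (control siRNA) against 4492, 4758 and 4562 (Brg1 siRNA) in LPS. It was at 3164, 3734, 3115 and 3377 (control siRNA) against 3837, 3659, 3921 and 4234 (Brg1 siRNA) in Dex+LPS. The groups overlapped only in Dex+LPS, and the log2 fold changes were 0.52 ± 0.07, 0.25 ± 0.07 and 0.23 ± 0.06.

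Atp6v0d2 (chr4:19876841-19922605, minus strand) encodes the other form of the same subunit, known from osteoclasts and macrophages. It was at 4949, 4957 and 4836 (control siRNA) against 4116, 4017 and 3991 (Brg1 siRNA) in vehicle. In LPS it was at 1015, 1138 and 929.5 (control siRNA) against 1487, 1374 and 1549 (Brg1 siRNA). In Dex+LPS it was at 854, 902, 968 and 783 (control siRNA) against 1144, 1192, 1182 and 975 (Brg1 siRNA). Brg1 siRNA libraries were thus lower in vehicle and higher in LPS and Dex+LPS, with no overlap in any of the 3. Estimated log2 fold changes were -0.28 ± 0.09, 0.52 ± 0.09 and 0.36 ± 0.08, with limma adjusted p = 0.0284, 0.000168 and 0.00126. The call in vehicle was lost without any one of the 6 vehicle libraries, at limma adjusted p values of up to 0.0839 (without Brg1 siRNA vehicle replicate 3). Of the 8 osteoclast markers tested, 4 fell and 1 (Acp5) rose in vehicle, and 5 fell and 1 (Itgb3) rose in LPS. In Dex+LPS 6 fell, and the other 2, Nfatc1 and Itgb3, did not pass. Calcr, 1 of these 6, passed the filter only through the control siRNA Dex+LPS libraries (19.9, 24.6, 18.3 and 19.9). It was at most 5.34 in any other library. Its fall in Dex+LPS was thus set by the filter and is not to be read as a result. Over all genes 10.8%, 15.8% and 15.3% fell. The part of these changes in the values of Atp6v0d2 was not tested.

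Atp6v1b2, the B subunit of the cytosolic sector, was at 15568, 14815 and 15235 (control siRNA) against 11327, 11329 and 11225 (Brg1 siRNA) in vehicle. Under LPS it was at 17822, 17694 and 17129 (control siRNA) against 17074, 16751 and 16782 (Brg1 siRNA). Under Dex+LPS it was at 12254, 12266, 12212 and 11833 (control siRNA) against 11421, 10826, 10886 and 10900.5 (Brg1 siRNA). It fell by 0.43 ± 0.04 on the log2 scale in vehicle, was at -0.06 ± 0.04 in LPS, which did not pass, and fell by 0.14 ± 0.03 in Dex+LPS. The Dex+LPS call was lost when only the Dex+LPS groups were fitted (limma adjusted p = 0.0725). Atp6ap1, an accessory subunit, rose by 0.17 in LPS and 0.16 in Dex+LPS. Atp6v1a, the catalytic A subunit, was at 0.07, 0.03 and 0.02, and Atp6v0c, the proteolipid of the membrane ring, at 0.12, -0.12 and -0.13. None of these 6 values passed the test. Of the 31-base words of Atp6v0c, 11.9% are shared with other genes, most of all with the pseudogene Atp6v0c-ps2.

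The transcription factors of these genes did not pass the test in any treatment. Tfeb was at 559, 491 and 515 (control siRNA) against 460.0, 548 and 466 (Brg1 siRNA) in vehicle. The LPS libraries were at 122, 85.6 and 107 (control siRNA) against 86, 97.2 and 70.5 (Brg1 siRNA), and in Dex+LPS at 125, 177, 94.6 and 164 (control siRNA) against 111, 92.5, 97.2 and 138 (Brg1 siRNA). The groups overlapped in each treatment, and the log2 fold changes were -0.09 ± 0.21, -0.30 ± 0.21 and -0.33 ± 0.18. Tfe3 had log2 fold changes of 0.10 ± 0.09, 0.13 ± 0.09 and 0.09 ± 0.08. RNA levels do not show where these proteins were in the cell.

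Both antimicrobial effectors rose in all 3 treatments. Mpeg1 (chr19:12460779-12465283, plus strand) encodes perforin-2, a pore-forming protein of the phagosome. It was at 67412, 70659 and 74032 (control siRNA) against 116752, 112209 and 113179 (Brg1 siRNA) in vehicle. It was at 55269, 62406 and 57794 (control siRNA) against 106755, 103832 and 107827 (Brg1 siRNA) in LPS. It was at 55753, 49779, 59257 and 54055 (control siRNA) against 101994, 101649.5, 98286 and 93386 (Brg1 siRNA) in Dex+LPS. No control siRNA library reached the lowest Brg1 siRNA library of any treatment, and the log2 fold changes were 0.69 ± 0.06, 0.86 ± 0.06 and 0.85 ± 0.06.

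Lyz2, the lysozyme of macrophages, which cleaves bacterial cell walls, was at 150535, 136255 and 140287 (control siRNA) against 199794, 206493 and 196289 (Brg1 siRNA) in vehicle. It was at 118779, 135967 and 131691 (control siRNA) against 221838, 223832 and 235446 (Brg1 siRNA) in LPS. It was at 137238, 173978, 147378 and 139334 (control siRNA) against 201888, 196016, 198692 and 190041 (Brg1 siRNA) in Dex+LPS. The groups were apart in every treatment, with log2 fold changes of 0.50 ± 0.08, 0.82 ± 0.08 and 0.40 ± 0.07. Of the 31-base words of Lyz2, 32.8% also occur in transcripts of other genes, with the paralog Lyz1 sharing the most. Its reads could thus be split between genes.

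The knockdown calls were also counted by promoter E-box. Of the 12 with CACGTG, 9 rose in each of the 3 treatments, and the other 3 (Gla, Naglu and Atp6v1a) passed in none. Of the 25 with a window but no E-box, 12, 15 and 16 rose and 2, 4 and 3 fell in vehicle, LPS and Dex+LPS. Over all genes tested, 9.39%, 17.3% and 19.0% rose and 10.8%, 15.8% and 15.3% fell. The median log2 fold changes were 0.33, 0.34 and 0.30 with the E-box and 0.14, 0.31 and 0.22 without it. The difference between these sets of genes was not tested.

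Lysosomal genes outside the 43 were read from lists of other enzymes, membrane proteins, pump subunits, sorting factors and regulators. The shares to set beside every such list are those of all genes tested. In vehicle, LPS and Dex+LPS, 9.39%, 17.3% and 19.0% of them rose and 10.8%, 15.8% and 15.3% fell. Of 44 further soluble hydrolases, 16 rose and 5 fell in vehicle, 19 rose and 5 fell in LPS, and 19 rose and 6 fell in Dex+LPS, with medians of 0.23, 0.23 and 0.24. Smpdl3a, an acid sphingomyelinase-like phosphodiesterase, rose by 0.95, 1.19 and 1.23. Sgsh, which degrades heparan sulfate, rose by 0.88, 2.28 and 1.51, and Galc, galactosylceramidase, by 0.51, 1.5 and 1.10. Sgsh had low counts in LPS, at 7.89, 15.0 and 13.9 (control siRNA) against 73.6, 73.5 and 43.2 (Brg1 siRNA). In Dex+LPS it was at 19.0 to 37.6 with control siRNA and at 64.1 to 110.8 with Brg1 siRNA. Acp2, the lysosomal acid phosphatase, rose by 1.10, 0.87 and 0.58. Among those that fell were Ctsk, the cathepsin of osteoclasts, at -1.90, -1.80 and -1.72, and Naaa, which cleaves N-acylethanolamines, at -1.13, -1.52 and -1.09. Ppt2, a palmitoyl-protein thioesterase homolog, was at -0.51, -0.53 and -0.59, all called lower. Hyal2, a hyaluronidase, was called lower in LPS only (-0.81). Acp5, the tartrate-resistant phosphatase that also marks osteoclasts, rose in vehicle by 0.77 and fell in LPS (-0.57) and Dex+LPS (-0.62).

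Of 31 further membrane proteins, 14 rose and 1 fell in vehicle, 16 rose and 2 fell in LPS, and 17 rose and 2 fell in Dex+LPS, with medians of 0.26, 0.26 and 0.25. The channel gene Mcoln3, a relative of Mcoln1, rose by 1.09, 1.70 and 2.19. Mcoln2 rose by 0.92 in vehicle and 0.42 in Dex+LPS, and its 0.08 in LPS did not pass. Slc17a5, the sialic acid exporter, rose by 0.67, 0.86 and 0.83, Slc38a9, an amino acid sensor, by 0.45, 0.70 and 0.40, and Litaf by 0.72, 0.34 and 0.29. Tmem106b rose in LPS (0.56) and Dex+LPS (0.44). Hgsnat, an acetyltransferase of heparan sulfate breakdown, fell in all 3, at -0.69, -0.33 and -0.23, and the histidine transporter gene Slc15a4 in LPS (-0.19) and Dex+LPS (-0.41).

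Of 16 further V-ATPase subunits and assembly factors, 3, 7 and 4 rose in vehicle, LPS and Dex+LPS, and 1 fell in vehicle. Atp6v1d rose by 0.32, 0.40 and 0.30, Atp6v1c1 by 0.24, 0.43 and 0.23, and Atp6v0a1 by 0.52 in LPS and 0.61 in Dex+LPS. Atp6v0e rose in vehicle (0.33) and LPS (0.24), and Atp6v1e1 fell in vehicle (-0.20) and rose in LPS (0.20). Of 27 genes that sort enzymes to the lysosome, 8, 8 and 7 rose and 3, 3 and 4 fell, and their medians of 0.04, 0.00 and 0.03 lay at the level of all genes. Over all genes, 9.39%, 17.3% and 19.0% rose and 10.8%, 15.8% and 15.3% fell, so the falls among the sorting genes lay near or below that share. Igf2r, the large mannose 6-phosphate receptor, rose by 0.58, 0.62 and 0.75, and Gnptg, a subunit of the enzyme that makes the mannose 6-phosphate tag, by 0.34, 0.57 and 0.49. Sorl1, a sorting receptor, rose in LPS (0.97) and Dex+LPS (1.12), as did Vps41 (0.59 and 0.38), a subunit of the tethering complex of late endosomes, and Vps18 of the same complex rose in vehicle (0.54). The small mannose 6-phosphate receptor, M6pr, was at 7067, 6888 and 6578 (control siRNA) against 4559, 4510.1 and 4449 (Brg1 siRNA) in vehicle and fell in all 3 treatments, at -0.60, -0.42 and -0.44. Sortilin (Sort1), another carrier of hydrolases, fell in all 3 as well, at -0.64, -0.76 and -0.92. Vps29, of the retromer, fell in vehicle (-0.26), Nagpa, which uncovers the mannose 6-phosphate tag, in LPS (-0.44) and Dex+LPS (-0.32), and the adaptor Gga2 in Dex+LPS (-0.49). Of 26 MiT/TFE relatives, regulators and nutrient-sensing genes, 7, 8 and 8 rose, and 2 fell in vehicle and 2 in Dex+LPS. Rragd, a Rag GTPase that recruits mTORC1 to the lysosome, rose by 0.93, 1.14 and 1.41. Gpnmb rose by 0.64, 0.88 and 0.79, and Tfec, a macrophage relative of Tfeb, by 0.72, 0.45 and 0.28. Sqstm1, the autophagy receptor p62, rose by 0.33, 0.67 and 0.58. Mitf fell in vehicle (-0.30), Gabarapl1, an autophagosome protein, in vehicle (-0.37) and Dex+LPS (-0.51), and Wipi1 in Dex+LPS (-0.66). Of 5 inhibitors of cathepsins tested, 2, 3 and 3 rose, and 1 fell in LPS. Cst3, cystatin C, rose by 0.47, 0.68 and 0.40, and Cst7 by 1.03 in LPS and 0.95 in Dex+LPS. Serpinb6a rose by 0.31, 0.59 and 0.52. Serpinb1a, the 1 that fell, had low counts in LPS, at 9.02, 12.7 and 4.28 (control siRNA) against 0, 0 and 4.55 (Brg1 siRNA).

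LPS lowered most of the lysosomal genes. With control siRNA, 33 of the 43 members fell and 4 rose, where 37.0% of all genes fell and 36.0% rose. With Brg1 siRNA, 29 fell and 6 rose, against 37.4% and 35.4%. The members' median log2 fold change was -0.57 with control siRNA and -0.45 with Brg1 siRNA, beside -0.04 and -0.05 over all genes. Among genes with a mean of at least 1000, 64.1% and 65.8% rose, while 28 and 23 of the 36 members at that level fell. The groups did not overlap for 39 of 43 members with either siRNA, where 77.6% and 78.8% of all genes did not. These values depend on the scaling: with plain library totals in place of the size factors, the median of all genes was -0.63 and -0.74, and 38 and 41 members fell while 3 and 1 rose. Relative to the median of all genes the members' median was -0.54 and -0.39 with the deposited scaling and -0.53 and -0.39 with plain totals.

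The steepest falls were those of Manba, Tfeb and Atp6v0d2 with control siRNA and of Manba, Tfeb and Naglu with Brg1 siRNA. Manba went from 987, 1006 and 1008 normalized counts in vehicle to 195, 169 and 179 in LPS with control siRNA, a log2 fold change of -2.46 ± 0.09, and changed by -2.54 ± 0.09 with Brg1 siRNA. Tfeb went from 559, 491 and 515 to 122, 85.6 and 107 with control siRNA and from 460.0, 548 and 466 to 86, 97.2 and 70.5 with Brg1 siRNA, with log2 fold changes of -2.32 ± 0.21 and -2.53 ± 0.21. Every LPS library lay below every vehicle library of the same siRNA for both genes. Tfe3 had log2 fold changes of 0.09 and 0.12 and did not pass with either siRNA. Relatives outside the members were higher in LPS. With control siRNA, Tfec went from 226.8, 181.5 and 178.3 to 6989.8, 7152 and 6748.1. Mitf went from 1341.7, 1393.8 and 1455.7 to 4255.9, 4203.1 and 3831.3. Atp6v0d2 changed by -2.26 ± 0.09 with control siRNA and -1.46 ± 0.09 with Brg1 siRNA.

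Lipa, whose product frees cholesterol in the lysosome, went from 33135, 33929 and 35167 in vehicle to 11326, 12300.3 and 10818 in LPS with control siRNA. With Brg1 siRNA it went from 39236, 38283 and 37683 to 14201, 15385 and 14134. The log2 fold changes were -1.57 ± 0.06 and -1.40 ± 0.06, with no overlap. All 8 genes of lipid handling fell with both siRNAs, by medians of -0.76 and -0.72.

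Among the glycosidases, 7 of 9 fell with control siRNA and 8 of 9 with Brg1 siRNA. Naglu went from 1106, 1093 and 1104 to 412, 382 and 512 with control siRNA and from 1241, 1351 and 1432 to 390.2, 446 and 359 with Brg1 siRNA. Gusb went from 10521, 9960.2 and 10409 to 4663, 4903 and 4631 with control siRNA and from 13558, 13608.5 and 12958 to 6871, 6977 and 7004 with Brg1 siRNA. Neither gene's groups overlapped, and the log2 fold changes were -1.35 ± 0.16 and -1.75 ± 0.16 for Naglu and -1.12 ± 0.05 and -0.94 ± 0.05 for Gusb. Smpd1, acid sphingomyelinase, fell from 409.8, 438 and 426 to 211, 243 and 194 with Brg1 siRNA (-0.98 ± 0.11), and from 389, 382 and 389 to 263, 242 and 277 with control siRNA (-0.57 ± 0.11).

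The 6 membrane proteins all fell with control siRNA, from -1.08 for Scarb2 to -0.18 for Lamp2, and 4 fell with Brg1 siRNA. Of the cathepsins and related peptidases, 8 fell with control siRNA and 6 with Brg1 siRNA. Lgmn changed by -1.02 ± 0.06 and -0.52 ± 0.06, Ctsd by -0.96 ± 0.05 and -0.74 ± 0.05, and Tpp1 by -0.66 ± 0.07 and -0.63 ± 0.07.

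A few members rose in LPS. Ctsc rose from 1714, 1949 and 1611 in vehicle to 16383, 16849 and 15666 in LPS with control siRNA and from 1712, 1679 and 1713 to 13490.2, 12829 and 14266 with Brg1 siRNA, by 3.22 ± 0.10 and 2.99 ± 0.10 on the log2 scale. No vehicle library came near an LPS library, and the rise was found under plain library totals too. Ctsz rose by 0.91 ± 0.07 and 0.60 ± 0.07, although under plain library totals the value with Brg1 siRNA became -0.08. Atp6v0d1 rose by 0.79 ± 0.07 and 0.52 ± 0.07, the latter -0.16 under plain totals. Atp6v1b2 rose by 0.21 ± 0.04 and 0.58 ± 0.04, where plain totals gave -0.37 and -0.10. Ctsl changed by -0.22 ± 0.06 with control siRNA and 0.24 ± 0.06 with Brg1 siRNA, the latter -0.44 under plain totals. Lyz2 was called higher with Brg1 siRNA (0.18 ± 0.08, limma adjusted p = 0.0479), but the direction turned under plain totals (-0.50). That call was also lost in 17 other analyses, 14 of them without a single library, at limma adjusted p values of up to 0.14 (without Brg1 siRNA LPS replicate 3).

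**Figure D4:**
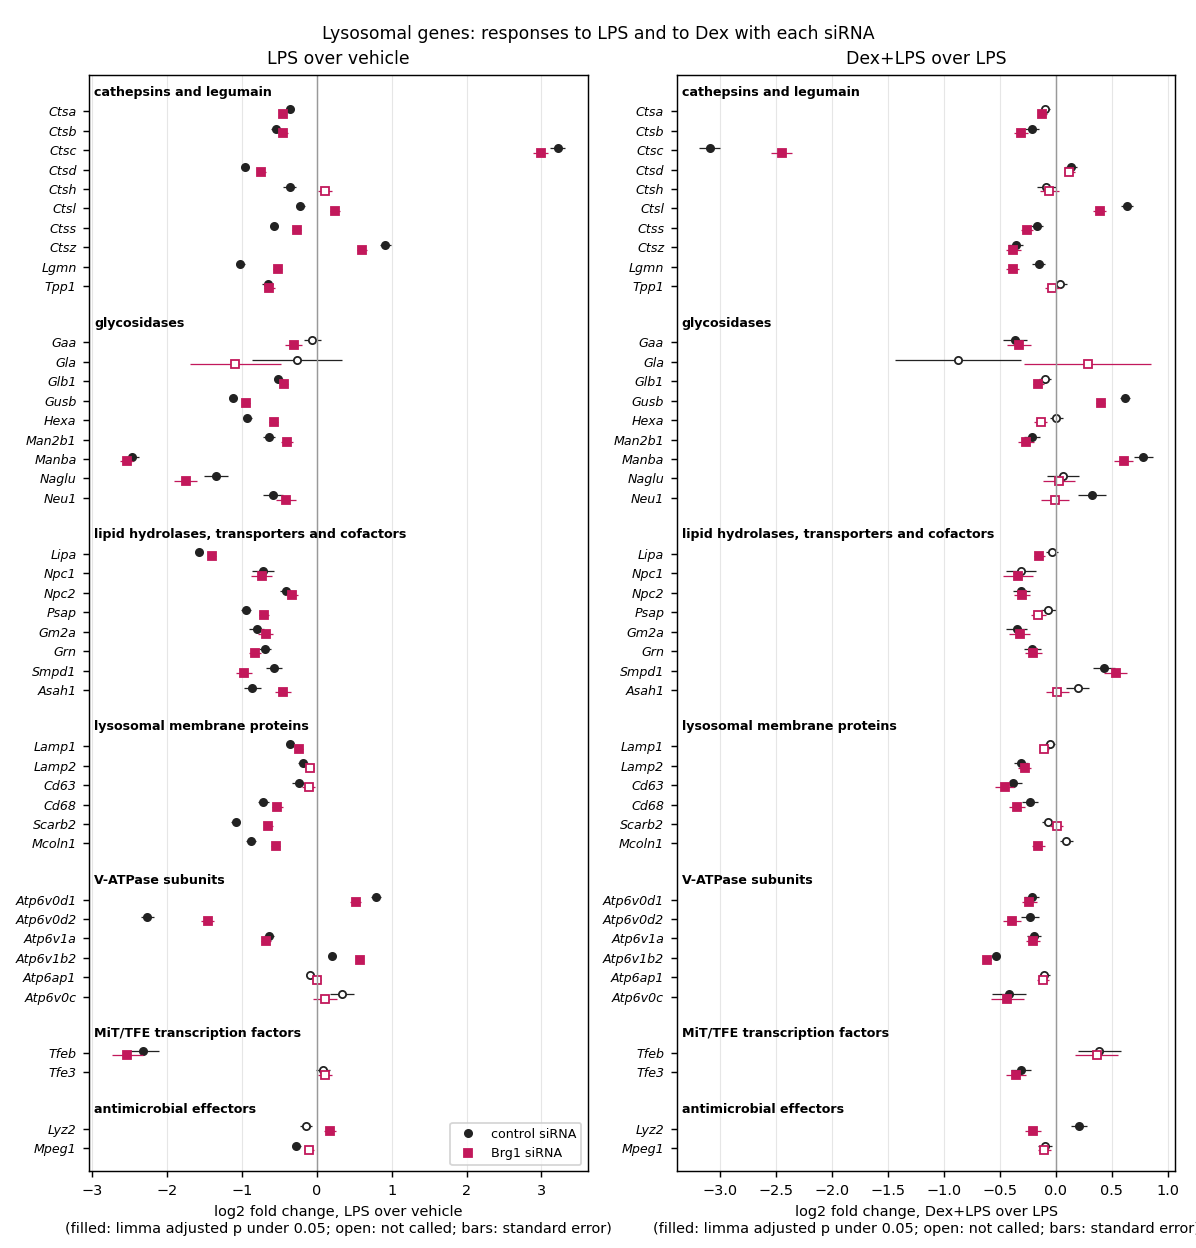
Log2 fold change (horizontal axes, bars are standard errors) of the 43 genes for LPS over vehicle (left) and Dex+LPS over LPS (right), with control siRNA and Brg1 siRNA. Filled symbols passed limma's adjusted p of 0.05. Most genes lie left of 0 for LPS, and Ctsc stands far to the right for LPS and far to the left for Dex+LPS.

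Dexamethasone added to LPS gave a smaller median change of the lysosomal genes than LPS did, and its direction for the group depended on the scaling. With control siRNA, 19 members fell and 7 rose, where 25.2% of all genes fell and 23.4% rose. With Brg1 siRNA, 25 fell and 4 rose, against 23.0% and 21.3%. The members' median was -0.10 and -0.16, beside -0.01 and -0.02 over all genes. Under plain library totals the median of all genes moved to 0.29 and 0.31, and 23 and 19 members rose while 2 fell with each siRNA. By edgeR on recovered reads, 8 members rose and 10 fell with control siRNA, and without control siRNA LPS replicate 1 limma called 4 higher. Among genes with a mean of at least 1000, 49.3% and 48.9% fell with the deposited scaling, and 18 and 23 of the 36 members at that level did. The median of all genes at that level was -0.22 with either siRNA, further below 0 than the -0.10 and -0.16 of the 43 members. The groups did not overlap for 22 and 31 of the 43 members, where 46.8% of all genes did not with either siRNA.

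Ctsc, the member that LPS raised most, fell from 16383, 16849 and 15666 in LPS to 2211, 1729, 2018 and 1725 in Dex+LPS with control siRNA. With Brg1 siRNA it fell from 13490.2, 12829 and 14266 to 2714, 2579, 2541 and 2096. On the log2 scale the changes were -3.09 ± 0.09 and -2.45 ± 0.09, with no overlap. Of the members that passed the test, Atp6v1b2 fell next most, by 0.53 ± 0.04 and 0.62 ± 0.04 on the log2 scale.

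Cd63, the tetraspanin, was at 9854, 9741 and 8931 in LPS and 6840.4, 8920.4, 7072 and 6509 in Dex+LPS with control siRNA. With Brg1 siRNA it was at 10705, 10128 and 10738 and 8148, 7785, 7549.5 and 7204. The groups did not overlap, with log2 fold changes of -0.38 ± 0.08 and -0.46 ± 0.08. Gaa changed by -0.36 ± 0.11 and Ctsz by -0.36 ± 0.07 with control siRNA, and Atp6v0d2 by -0.39 ± 0.08 and Lgmn by -0.39 ± 0.06 with Brg1 siRNA. Under plain library totals none of these values, nor those of Cd63, passed the test, and they lay between -0.05 and -0.12. Atp6v0c was at 13552, 11576 and 15381 in LPS and 8929.9, 10932, 8458 and 12396 in Dex+LPS with control siRNA, and at 12239.7, 14148 and 10905 and 8174, 8034, 8704 and 12318 with Brg1 siRNA. The groups overlapped with both siRNAs, and the calls (-0.42 ± 0.15 and -0.43 ± 0.15) were each lost in 7 alternative analyses. Among the fits without a library, the limma adjusted p rose to 0.145 without control siRNA LPS replicate 3 and to 0.129 without Brg1 siRNA LPS replicate 2. Plain library totals gave -0.12 and -0.10 for Atp6v0c, with limma adjusted p = 0.558 and 0.626. By edgeR both calls were lost too (edgeR adjusted p = 0.0658 and 0.0513).

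Manba, Gusb, Smpd1 and Ctsl, 4 hydrolase genes, rose with both siRNAs. Manba went from 195, 169 and 179 in LPS to 322, 289.6, 339 and 295 in Dex+LPS with control siRNA and from 104, 131 and 118 to 189.9, 172, 175 and 179 with Brg1 siRNA. Gusb was at 7339.7, 7666, 7142 and 6955 in Dex+LPS with control siRNA and at 8884, 9452, 9395 and 8959 with Brg1 siRNA, above its LPS libraries. Smpd1 was at 325, 374, 314 and 396 and 276, 336, 295 and 348. For all 4 the Dex+LPS libraries lay above the LPS libraries of the same siRNA without overlap. The log2 fold changes with control and Brg1 siRNA were 0.78 ± 0.09 and 0.61 ± 0.09 for Manba, 0.62 ± 0.04 and 0.40 ± 0.04 for Gusb. They were 0.43 ± 0.10 and 0.54 ± 0.10 for Smpd1 and 0.64 ± 0.06 and 0.39 ± 0.06 for Ctsl.

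With control siRNA, Neu1 and Lyz2 also rose. Neu1 went from 878, 738 and 1001 in LPS to 1065, 1092, 940.1 and 1266 in Dex+LPS, with overlap and a log2 fold change of 0.32 ± 0.13. That call was lost in 8 alternative analyses, 5 of them without a single library, at a limma adjusted p of up to 0.221 (without control siRNA LPS replicate 2). Lyz2 changed by 0.21 ± 0.07 with control siRNA and by -0.21 ± 0.07 with Brg1 siRNA. The control siRNA call was lost without control siRNA LPS replicate 1 (limma adjusted p = 0.133). No filter (limma adjusted p = 0.0816) and a fit to the compared groups alone (limma adjusted p = 0.116) lost it too.

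The knockdown effect differed between LPS and vehicle for 9 members, in each case more positive in LPS. Limma called 6.39% of all genes more positive in LPS and 5.05% more negative. It called 0 members more negative, with 3 at an unadjusted p under 0.05, where edgeR called 0 and DESeq2 called 1. Under plain library totals 6 members were more positive and 2 more negative. The members' median difference was 0.12, beside 0.02 over all genes. Among genes with a mean of at least 1000, 12.9% were more positive and 6.89% more negative, with a median difference of 0.08. Of the 36 members at that level, 8 were more positive. Atp6v0d2 had the greatest difference among the 9, 0.80 ± 0.12 on the log2 scale, from a fall in vehicle to a rise in LPS. Lgmn followed with 0.50 ± 0.09, Ctsh with 0.47 ± 0.13 and Ctsl with 0.46 ± 0.09, and the limma adjusted p values of the 4 were 0.000279, 0.000808, 0.023 and 0.00163. The others were Scarb2 (0.43), Atp6v1b2 (0.37), Hexa (0.35), Mcoln1 (0.33) and Ctss (0.30). The call for Ctsh was lost without any of 8 single libraries, at a limma adjusted p of up to 0.0614 (without control siRNA vehicle replicate 2). Under plain library totals it was lost too (0.37, limma adjusted p = 0.0547). The count rose to 14 without control siRNA Dex+LPS replicate 2 and to 19 when only the 4 groups concerned were fitted.

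Between Dex+LPS and LPS the knockdown effect differed for 2 members, where 2.75% of all genes were more positive and 1.22% more negative in Dex+LPS. Ctsc went from lower to higher with Brg1 siRNA, a difference of 0.64 ± 0.13 (limma adjusted p = 0.00849). For Lyz2 the effect was smaller in Dex+LPS, by -0.42 ± 0.10 (limma adjusted p = 0.0257). That call was lost without control siRNA LPS replicate 1 (limma adjusted p = 0.0846) or Brg1 siRNA LPS replicate 3 (limma adjusted p = 0.0718). No filter, the compared groups alone and leaving out the higher identifier series lost it too (limma adjusted p = 0.105, 0.0598 and 0.0739). For all other members no difference was detected, and the median was -0.04 beside 0.01 over all genes. These differences and the 2-group comparisons share libraries, so they are not independent of each other.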

How the data were processed

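RNA-seq of 20 libraries was analysed in the 6 groups given by the labels. Per the file headers, the authors deposited a table of normalized signal (DESeq normalization) for 17787 genes, with log2 fold changes, p-values and adjusted p-values of their own comparisons. Per the submitters' processing notes, Salmon 1.4.0, DESeq, DESeq2 and R 4.1.0 were used with the builds mm10 and GRCm38.p6, and the strand counted is not given in the sources used here. Labels name a stranded mRNA kit with 500 ng of RNA and also rRNA depletion. Signal values proved to be whole reads over a size factor per library: 99.9% of those above 0 lay within 0.01 of a whole read, and recomputed size factors differed by at most 0.0959%.

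A gene was tested if 3 or more samples held 10 or more normalized counts. The test was limma's trend method, version 3.58.1 in R 4.3.3, applied to log2 of the normalized count plus 1, all 6 groups in 1 fit, with Benjamini-Hochberg adjustment over 12061 genes within each of 9 comparisons at 0.05. Log2 fold changes on this scale understate those of low genes. Values with ± are estimates with their standard error. The script was tested on simulated data first. Alternatives were edgeR 4.0.16 and DESeq2 1.42.0 on the recovered reads, other pseudocounts (0.5 and 10), no filter or a filter at 50, plain library totals, fits to the compared groups alone, the replicate number or identifier series in the fit, and leaving out libraries. Most same-numbered libraries did not deviate together: 2 of 46 such pairs correlated above 0.1 (highest 0.41). Only 5 of 20 libraries correlated best with their own number, so the numbers were not used as pairs. In the LPS groups the higher identifier series falls on different replicate numbers, so this check does not cover that series.

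The members and lists were chosen with earlier results of these data known. Named in detail are, per comparison, the up to 6 members called in each direction with the largest change (4 for differences), and from each other list up to 3 called genes in each direction. E-box windows come from RefSeq, gene positions from GENCODE on GRCm38, and shared 31-base words from GENCODE transcripts.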

Additional observations from a re-analysis of the deposited data

Results flagged for a closer look

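In the groups of 4 libraries, 10 of 86 member groups held a library far from the other 3 by Dixon's test. The share over all genes was not computed, and genes of 1 library are not independent, so this count is not particular to the members. Over all genes with enough reads, squared differences relative to counting noise averaged 7.06 between control siRNA Dex+LPS replicates 1 and 3. Between replicate 2 and replicates 1, 3 and 4 of that group they averaged 40.9, 39.9 and 52.1. In the control siRNA Dex+LPS group, replicate 2 stood apart for Tpp1 (2551 normalized counts, the others 2206 to 2254), Hexa (9796, the others 8156 to 8309) and Npc1 (991.8, the others 1615 to 1672). Replicate 4, of the higher identifier series, stood apart in the same group for Gaa (645, the others 514 to 534) and Atp6v1b2 (11833, the others 12212 to 12266). In the Brg1 siRNA Dex+LPS group, replicate 4 stood apart for Ctss (65938, the others 70278 to 70915), Gaa (1150, the others 842 to 888), Lamp1 (26216, the others 27263 to 27439) and Atp6v0c (12318, the others 8034 to 8704). Replicate 1 of that group stood apart for Atp6v1b2 (11421, the others 10826 to 10900.5). The knockdown counts without the higher identifier series are given with the other alternatives.

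The knockdown effect, on the log2 scale, was more positive in LPS than in vehicle by an interaction term for Atp6v0d2 (0.80), Lgmn (0.50), Ctsh (0.47), Ctsl (0.46), Scarb2 (0.43), Atp6v1b2 (0.37), Hexa (0.35), Mcoln1 (0.33) and Ctss (0.30). Between Dex+LPS and LPS it differed for Ctsc (0.64) and Lyz2 (-0.42).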

How the results depend on the processing

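The counts of members called in the 3 knockdown comparisons and in the LPS response with control siRNA stayed within 1.5 times of their value in all 31 alternatives, of which 20 each left out a library. Without the 4 libraries of the higher identifier series, 24, 26 and 27 members rose with the knockdown and 4, 4 and 4 fell. Single member values were checked for the 80 picked by the naming rule, up to 6 called members per direction and comparison (4 for differences). Of these, 58 kept direction and call throughout, 17 lost the call in at least 1 alternative and 6 reversed in at least 1 (1 of them did both). The other member values given in the text were not checked in this way. Plain library totals gave median log2 fold changes of the members of 0.17 (vehicle), 0.19 (LPS) and 0.18 (Dex+LPS) for the knockdown, -1.15 and -1.13 for LPS with control and Brg1 siRNA, 0.19 and 0.18 for the Dex responses, which reversed, and 0.021 and -0.0084 for the differences. They also reversed Atp6v1b2 (-0.37) in the LPS response with control siRNA, and Ctsz (-0.078), Atp6v1b2 (-0.10), Atp6v0d1 (-0.16), Ctsl (-0.44) and Lyz2 (-0.50) in that with Brg1 siRNA, where 1 member was called higher. In the Dex responses they called 23 and 19 members higher and 2 and 2 lower. In the Dex response with control siRNA, a fit to the compared groups alone called 13 members, 4 higher and 9 lower. No filter gave 4 higher, and edgeR gave 10 lower.

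For the difference between LPS and vehicle, the compared groups alone called 19 members, 16 higher and 3 lower, and the identifier series as a term 19, 15 higher and 4 lower. The count lower was 1 with a filter at 50, 2 with plain totals and 1 with DESeq2. For the difference between Dex+LPS and LPS, the total was 4 with DESeq2 and 1 with no filter, with the compared groups alone and without the higher series. The count lower there was 2 with a pseudocount of 10, a filter at 50, edgeR or the identifier series, 3 with DESeq2, and 0 with no filter, the compared groups alone or without the higher series. The replicate block gave 2 members lower there, and it moved no other count of members by over 1.5 times. It ended the call of Neu1 in the Dex response with control siRNA (0.23, limma adjusted p = 0.0693). Leaving out a library gave 4 (without control siRNA LPS replicate 1) to 8 members higher in the Dex response with control siRNA. For the difference between LPS and vehicle it gave 7 to 14 members called and 0 to 2 lower (2 without control siRNA Dex+LPS replicate 2). For that between Dex+LPS and LPS it gave 1 to 3 called and 0 to 2 lower (0 without control siRNA LPS replicate 1 or Brg1 siRNA LPS replicate 3). The causes were not tested. Depth limits Gla, and 3 or 4 libraries a group limit small changes.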
